A study of Mus musculus with 15 samples.

Results

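The cyclic nucleotide phosphodiesterases described here were the 10 genes *Pde1a*, *Pde1b*, *Pde1c*, *Pde2a*, *Pde4a*, *Pde4b*, *Pde4d*, *Pde5a*, *Pde7b* and *Pde10a*, taken by symbol from a table of 24982 genes. All 10 were among the 15261 genes with a mean value high enough to be tested. RNA had been sequenced from the ventral striatum of 15 mice of the C57BL/6J strain, aged 2 to 3 months and dissected after behavioral tests. The groups were 3 *Fmr1* KO males, 4 *Fmr1* KO females, 4 WT males and 4 WT females. The *Fmr1* KO is a constitutive loss in all tissues, and the KO mice were bred within their own line from KO parents, so that genotype and line cannot be told apart. Tissue of both hemispheres was pooled for each mouse. Values are regularized log (rlog) values, which are on a log2 scale, carry a correction for library size, and pull weakly expressed genes toward their mean.

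Phosphodiesterases hydrolyze the second messengers cAMP and cGMP and so end signals from receptors that act through adenylyl and guanylyl cyclases. In the striatum, dopamine and adenosine receptors act on cAMP in the GABAergic projection neurons, and nitric oxide raises cGMP. *Pde1a*, *Pde1b* and *Pde1c* encode enzymes activated by calcium and calmodulin, *Pde2a* an enzyme stimulated by cGMP, the *Pde4* genes and *Pde7b* enzymes specific for cAMP, *Pde5a* an enzyme specific for cGMP, and *Pde10a* an enzyme for both nucleotides that is concentrated in striatal projection neurons.

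The targeted gene was examined in every mouse. *Fmr1* had rlog values of 9.87 to 9.96 in KO males and 9.82 to 10.08 in KO females, against 10.66 to 10.88 in WT males and 10.62 to 10.83 in WT females (log2 fold change -0.84, limma, adjusted p = 2.9e-07). Every KO mouse was below every WT mouse. Values within a group correlated at 0.992 to 0.999 across genes, but sequencing depth per mouse is unknown, since rlog values hold no totals. Of 24 markers of striatal projection neurons, 23 were on the lower side in *Fmr1* KO mice (median log2 fold change -0.48), and the dopamine receptor markers *Drd1* and *Drd2* had mean rlog values of 12.08 and 11.78. All 13 tested markers of thalamus and hypothalamus, which lie outside the dissected tissue, were on the higher side (median 0.63), with a list mean of 7.30 to 8.45 in KO males and 6.79 to 8.70 in KO females, against 6.73 to 7.30 in WT males and 6.85 to 7.26 in WT females. The mean rlog of the projection neuron list was 12.25 to 12.69 in KO males and 11.82 to 12.54 in KO females, against 12.58 to 12.94 in WT males and 12.36 to 12.98 in WT females. Of other lists, all 8 septal and pallidal markers were on the higher side (1 at an unadjusted p under 0.05, against 11.6% of all genes). All 9 microglial markers were on the lower side (5 at an unadjusted p under 0.05, against 11.8% of all genes). In males, 7 of 8 choroid plexus markers were higher at an unadjusted p under 0.05, against 8.75% of all genes. Their list means were 5.96 to 6.04 in KO males, against 5.42 to 5.70 in WT males. In females, 5 of the 8 were on the lower side, and 0 had an unadjusted p under 0.05 in either direction. The part of the microglial and choroid plexus lists in the differences of the members was not tested. On the projection neuron list, KO female 3 had the lowest mean, and WT female 1 and WT male 3 were below the other 6 WT mice. On the thalamus and hypothalamus list, KO female 3 (8.70), KO male 1 (8.45) and KO female 1 (7.72) had the highest means. These mice also had the lowest means on the projection neuron list. KO males 3 and 4 had 7.34 and 7.30, and KO females 2 and 4 had 6.79 and 6.94. The share of tissue from outside the ventral striatum in each sample was not tested. In bulk tissue, fewer cells of a type and less RNA per cell cannot be told apart.

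Levels of the 10 genes were compared with each other as the rlog value minus the log2 of the length in kb of the longest annotated transcript. On this scale *Pde1b* was highest in WT mice (12.40 ± 0.24, SD, n = 8), at percentile 99.6 of the genes with a length. *Pde2a* (11.65 ± 0.14) and *Pde10a* (11.65 ± 0.33) followed at percentile 98.7 each, and their WT ranges overlapped. *Pde7b* (10.29 ± 0.28) and *Pde4b* (10.01 ± 0.09) came next, and their ranges overlapped too. Below them stood *Pde1a* (9.58 ± 0.12), then *Pde4a* (8.69 ± 0.11) and *Pde4d* (8.54 ± 0.11), whose ranges overlapped. *Pde1c* (7.25 ± 0.17) was at percentile 48.2, and *Pde5a* (4.41 ± 0.13) was last, at percentile 15.9. The gap of *Pde5a* to *Pde1c* was 2.84 ± 0.25 on the log2 scale over the 8 WT mice. The level per length in *Fmr1* KO mice was 11.94 ± 0.30 for *Pde1b*, 11.14 ± 0.44 for *Pde10a* and 4.87 ± 0.23 for *Pde5a* (SD, n = 7).

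The order of the highest genes rested on the length used. With the mean length of the coding transcripts, *Pde10a* stood above *Pde1b* and *Pde2a*, and *Pde4d* above *Pde4a*. *Pde10a* has 8 coding transcripts in the annotation and a longest one of 7.77 kb, against 3 and 3.26 kb for *Pde1b*. *Pde5a* was last of the 10 with either length and also with none.

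**Figure D1:**
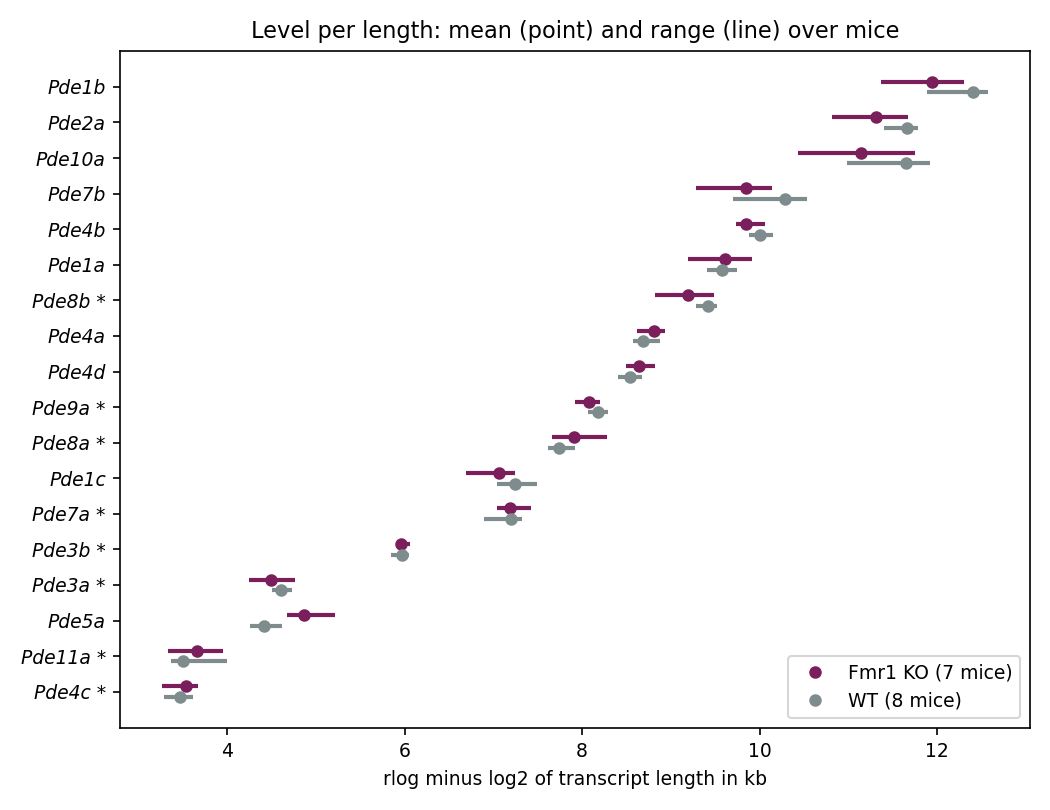
Level of each phosphodiesterase gene per length (rlog minus log2 of the transcript length in kb) in *Fmr1* KO mice (upper line of each pair, 7 mice) and WT mice (lower line, 8 mice). Points are means and lines run from the lowest to the highest mouse, and genes with an asterisk are other phosphodiesterases. *Pde1b* is at the top and *Pde5a*, the member with the lowest level, is the only member whose KO and WT lines do not overlap.

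Over both sexes, *Pde5a* was the member that passed the test. Its rlog value was 7.66, 7.69 and 7.60 in KO males and 7.67, 8.14, 7.68 and 8.11 in KO females, against 7.19, 7.44, 7.18 and 7.45 in WT males and 7.34, 7.27, 7.29 and 7.55 in WT females. Every *Fmr1* KO mouse was above every WT mouse, and KO females 2 and 4 stood above the other KO mice. The log2 fold change was 0.44 ± 0.08 (SE, limma, adjusted p = 0.0335, n = 7 and 8), which is 1.36-fold on the linear scale of the rlog values (95% confidence interval 1.20 to 1.54). Over both sexes, 1.28% of all tested genes passed the same threshold in either direction, and in 0.157% the KO mice were all above the WT mice. An exact permutation test with mice exchanged within each sex gave p = 0.000408 (2-sided), the smallest it can give. Adjusted over all genes, that exact test did not pass the threshold (adjusted p = 0.0989), and 22.5% of all genes had an exact p under 0.05. With 2450 arrangements, passing needed many genes tied at the smallest p, whatever the values of *Pde5a*.

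The call for *Pde5a* lay close to the threshold. It was lost when WT male 1, 2 or 4, WT female 2, 3 or 4, or KO male 1 or 3 was left out (adjusted p up to 0.0891). It was kept without each of the other 7 mice, and the log2 fold change stayed between 0.40 and 0.47. The adjustment covers all genes, of which 5 to 1444 of 15261 were called with each mouse left out in turn. Adding the projection neuron score to the model gave a log2 fold change of 0.57 and the call was lost (limma, adjusted p = 0.243). That score was itself lower on average in *Fmr1* KO mice, so score and genotype cannot be told apart in that fit.

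*Pde5a* is on chromosome 3 (chr3:122728947-122859374, plus strand, GRCm38). In brain it is known from vascular smooth muscle and from some neurons. Of 10 endothelial and mural markers, 9 were on the lower side over both sexes (median -0.05), and the smooth muscle gene *Tagln* was lower (log2 fold change -0.52, limma, adjusted p = 0.0335). By sex, 7 of the 10 markers were on the higher side in males (median 0.04), and all 10 were on the lower side in females (median -0.13). The mean rlog of that list was 8.92 to 9.04 in KO males and 8.72 to 9.15 in KO females, against 8.86 to 9.13 in WT males and 9.002 to 9.307 in WT females. An exon of *Pde5a* overlaps 4930447N08Rik on the opposite strand, whose mean rlog was -0.72. The window around the annotated start of *Pde5a* (RefSeq, GRCm38.p6, 250 bases before to 50 after the start) is shown because this was the gene that passed the test. Capitals mark GGGCGG, the letters of the SP1 box, read on either strand (CCGCCC on the other).
Pde5a, chr3:122728908-122729207, plus strand: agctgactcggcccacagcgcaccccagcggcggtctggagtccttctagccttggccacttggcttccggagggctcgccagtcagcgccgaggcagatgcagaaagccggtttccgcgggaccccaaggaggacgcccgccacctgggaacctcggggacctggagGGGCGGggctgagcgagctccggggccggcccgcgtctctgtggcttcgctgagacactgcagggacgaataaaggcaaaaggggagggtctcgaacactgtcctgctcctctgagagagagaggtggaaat

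In the sexes apart, *Pde5a* had the same direction in both. The log2 fold change was 0.34 ± 0.09 in males (SE, limma, adjusted p = 0.139, n = 3 and 4) and 0.54 ± 0.13 in females (adjusted p = 0.218, n = 4 and 4). Neither passed the adjusted threshold, although the KO and WT mice did not overlap in either sex (exact permutation p = 0.0286 in each sex, the smallest it can give). The difference between the sexes was 0.20 ± 0.17 (SE, limma interaction, adjusted p = 0.831).

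**Figure D2:**
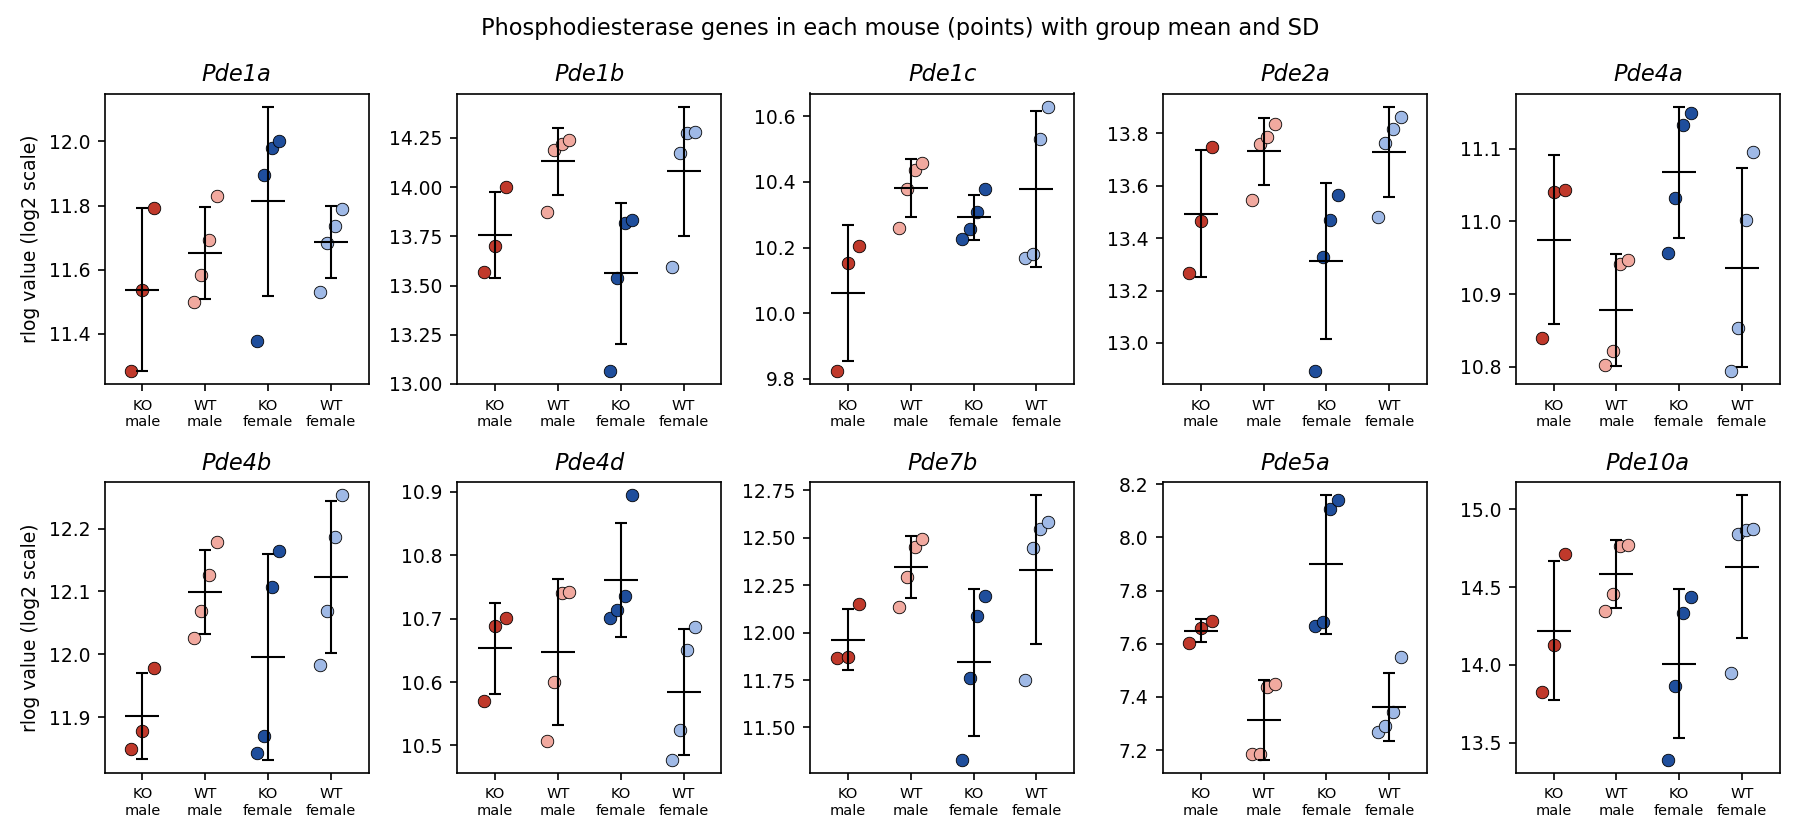
rlog value (log2 scale) of each of the 10 genes in every mouse, with *Fmr1* KO males, WT males, KO females and WT females from left to right. Points are mice, and bars show the group mean and SD; each panel has its own axis. For *Pde5a* all KO points lie at or above 7.60 and all WT points at or below 7.55, while KO and WT points of *Pde10a* overlap.

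*Pde10a*, *Pde1b*, *Pde7b* and *Pde2a* had negative fold changes over both sexes that did not pass the adjusted threshold. *Pde10a* had rlog values of 13.83, 14.13 and 14.71 in KO males and 13.87, 14.43, 13.39 and 14.33 in KO females, against 14.45, 14.77, 14.35 and 14.77 in WT males and 13.95, 14.84, 14.87 and 14.87 in WT females. KO female 3 was the lowest mouse, WT female 1 was above only KO male 1, KO female 1 and KO female 3, and the groups overlapped. The log2 fold change was -0.50 ± 0.19 (SE, limma, adjusted p = 0.124).

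*Pde1b* had 13.57, 13.70 and 14.00 in KO males and 13.54, 13.82, 13.07 and 13.83 in KO females, against 14.22, 14.19, 13.88 and 14.24 in WT males and 13.59, 14.27, 14.28 and 14.17 in WT females. Apart from WT female 1 and WT male 3, every WT mouse lay above every KO mouse. Its log2 fold change was -0.45 ± 0.13 (SE, limma, adjusted p = 0.0709).

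*Pde7b* had 11.87, 11.87 and 12.15 in KO males and 11.76, 12.09, 11.33 and 12.19 in KO females, against 12.29, 12.45, 12.14 and 12.49 in WT males and 11.75, 12.55, 12.58 and 12.44 in WT females. Again KO female 3 was the lowest, and WT female 1 was below 6 of the 7 KO mice. Its log2 fold change was -0.44 ± 0.14 (SE, limma, adjusted p = 0.0835).

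*Pde2a* had 13.27, 13.46 and 13.75 in KO males and 13.33, 13.47, 12.89 and 13.57 in KO females, against 13.79, 13.76, 13.54 and 13.83 in WT males and 13.48, 13.86, 13.76 and 13.82 in WT females. The groups overlapped through KO male 4 and KO female 4 on the KO side and WT female 1 and WT male 3 on the WT side. For *Pde2a* the log2 fold change was -0.33 ± 0.10 (SE, limma, adjusted p = 0.0787).

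These values moved with the projection neuron markers from mouse to mouse. After the group means were subtracted, the correlation with the mean of the 24 markers over 15 mice was 0.998 for *Pde1b* (Spearman's rho 0.996), 0.965 for *Pde7b* (rho 0.964), 0.963 for *Pde2a* (rho 0.964) and 0.962 for *Pde10a* (rho 0.932). The mice share tissue dissection and library size correction, and these correlations are given as a description. Without the mice whose marker score lay farthest from the median once group means were subtracted, KO female 3 and WT female 1, the correlation over 13 mice was 0.995 for *Pde1b*, 0.913 for *Pde7b*, 0.952 for *Pde2a* and 0.923 for *Pde10a*. *Pde4b* (0.683, rho 0.639) and *Pde5a* (0.498, rho 0.507) followed the markers less closely, and *Pde4d* was negative (-0.605, rho -0.504). The marker score was itself lower on average in *Fmr1* KO mice, so a model that holds both cannot tell score and genotype apart. When the marker score was added to the model, the log2 fold change over both sexes was 0.02 for *Pde1b*, 0.02 for *Pde2a*, 0.05 for *Pde7b* and 0.16 for *Pde10a*, all with the sign turned. None of them passed the adjusted threshold (limma). Their adjusted p was close to its upper limit, so it does not give the size of a difference.

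The number of members called changed when single mice were left out. Without WT female 1, *Pde1b*, *Pde2a*, *Pde4b*, *Pde7b* and *Pde10a* were lower in *Fmr1* KO mice beside the higher *Pde5a* (6 members called, limma), and calls among all tested genes were then 9.46%, against 1.28% with all mice. The same 6 were called without WT female 1 and WT male 3 together (14.3% of all genes), which was tried after the data were seen. Without WT male 3 alone, 3 members were called, *Pde1b*, *Pde2a* and *Pde5a* (7.21% of all genes). Without KO female 2, the 3 were *Pde1b*, *Pde4b* and *Pde5a* (5.91%). Without KO female 3, *Pde5a* was the member called (0.275%).

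**Figure D3:**
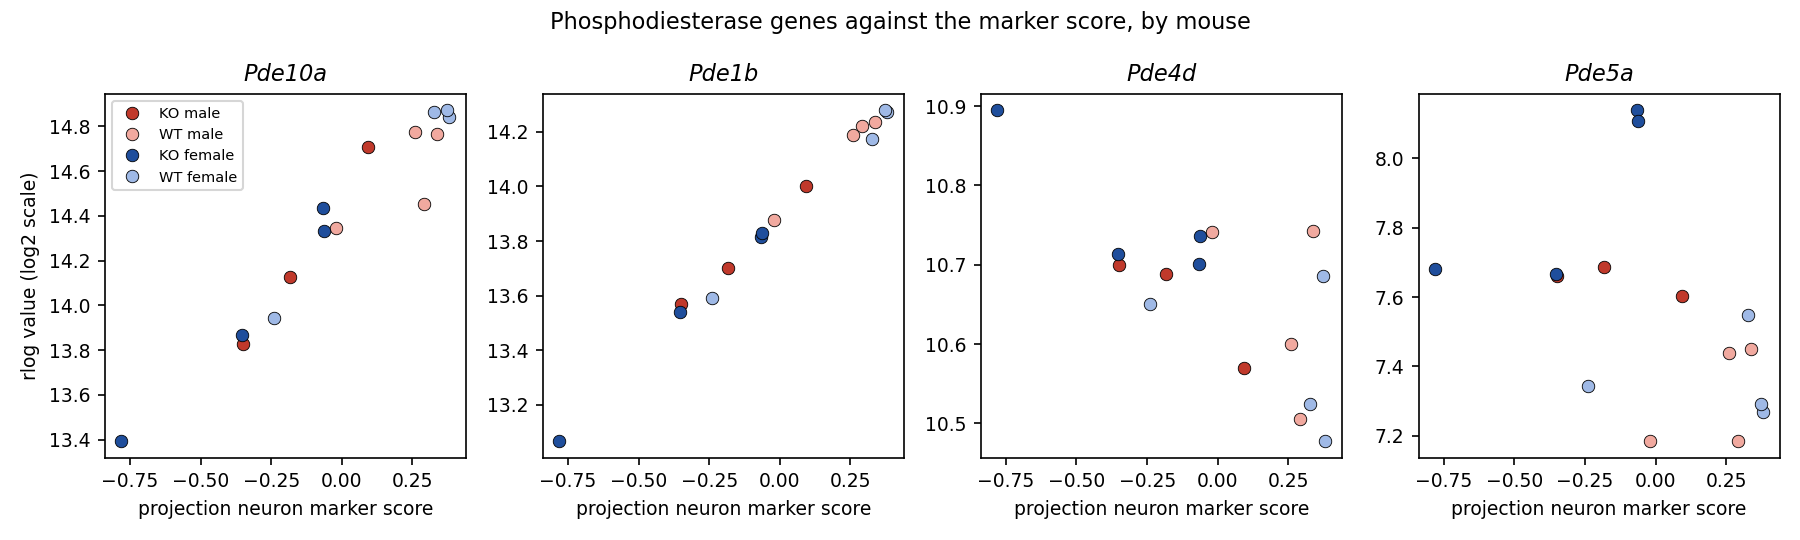
rlog value (log2 scale) of *Pde10a*, *Pde1b*, *Pde4d* and *Pde5a* against the projection neuron marker score of each mouse (mean over 24 genes of the rlog value minus the mean of the gene over all mice). Colors mark *Fmr1* KO males, WT males, KO females and WT females. *Pde1b* and *Pde10a* run along the score from KO female 3 at -0.78 to WT female 2 at 0.38, and for *Pde5a* the KO points lie above the WT points across the score.

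The windows around annotated starts of *Pde1b* and *Pde10a* are shown beside that of *Pde5a* because these genes had high levels per length and moved with the markers. Each is from RefSeq (GRCm38.p6), is the window of lowest coordinate among the 3 and 2 of its gene, and has the SP1 box letters in capitals on either strand.
Pde1b, chr15:103502784-103503083, plus strand: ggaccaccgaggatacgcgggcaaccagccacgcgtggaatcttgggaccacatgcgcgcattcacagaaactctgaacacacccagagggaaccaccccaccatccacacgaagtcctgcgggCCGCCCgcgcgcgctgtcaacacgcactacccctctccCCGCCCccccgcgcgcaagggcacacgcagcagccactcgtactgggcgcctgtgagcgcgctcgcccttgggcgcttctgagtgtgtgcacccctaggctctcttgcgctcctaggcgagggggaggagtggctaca
Pde10a, chr17:8801495-8801794, plus strand: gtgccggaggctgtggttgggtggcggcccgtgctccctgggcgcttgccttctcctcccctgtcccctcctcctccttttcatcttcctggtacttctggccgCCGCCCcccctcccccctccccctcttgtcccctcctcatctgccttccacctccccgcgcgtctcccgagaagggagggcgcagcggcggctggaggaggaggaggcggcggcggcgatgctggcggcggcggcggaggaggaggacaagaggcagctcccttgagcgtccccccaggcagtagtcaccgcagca
The SP1 box letters were in 7 of the 27 windows of the 10 genes and in 35.7% of all 32851 windows of this length. The letters TGACG, the core of the cAMP response element, were in 4 of the 27 windows, in *Pde1a*, *Pde2a*, *Pde4a* and *Pde4b*, and in 20.8% of all windows, and the full palindrome TGACGTCA was in 0 of the 27 and in 1.79% of all. TATAAA was in 3 of the 27 windows, in *Pde1a* and *Pde1b*, and in 13.6% of all. Each motif was read on both strands, and the full palindrome contains the core.

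The cAMP-specific *Pde4* genes had small differences. *Pde4b* had 11.88, 11.98 and 11.85 in KO males and 11.87, 12.16, 11.84 and 12.11 in KO females, against 12.03, 12.18, 12.07 and 12.13 in WT males and 11.98, 12.19, 12.25 and 12.07 in WT females. All KO males were below all WT males, and the females overlapped. For *Pde4b* the log2 fold change was -0.16 ± 0.06 (SE, limma, adjusted p = 0.110).

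*Pde4d* had 10.70, 10.69 and 10.57 in KO males and 10.71, 10.70, 10.89 and 10.74 in KO females, against 10.51, 10.60, 10.74 and 10.74 in WT males and 10.65, 10.48, 10.69 and 10.52 in WT females. All KO females were above all WT females, and the males overlapped. The log2 fold change of *Pde4d* was 0.10 ± 0.05 over both sexes (SE, limma, adjusted p = 0.271), 0.01 ± 0.07 in males and 0.18 ± 0.06 in females (adjusted p = 0.979 and 0.279). The sexes differed by 0.17 ± 0.10 (SE, limma interaction, adjusted p = 0.796).

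*Pde4a* ranged from 10.84 to 11.15 in KO mice and from 10.79 to 11.10 in WT mice, with a log2 fold change of 0.12 ± 0.05 over both sexes (SE, limma, adjusted p = 0.192). The *Pde4* genes did not share a sign.

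Of the calcium-dependent enzymes, *Pde1c* had 10.15, 10.21 and 9.82 in KO males and 10.26, 10.38, 10.22 and 10.31 in KO females, against 10.26, 10.43, 10.46 and 10.38 in WT males and 10.17, 10.53, 10.63 and 10.18 in WT females. All KO males were below all WT males, KO male 4 being the lowest mouse, and the females overlapped. *Pde1c* thus had a log2 fold change of -0.19 ± 0.08 over both sexes (SE, limma, adjusted p = 0.161). *Pde1a* ranged from 11.28 to 12.00 in KO mice and from 11.50 to 11.83 in WT mice, with a log2 fold change of 0.02 ± 0.10 (95% confidence interval -0.20 to 0.23, adjusted p = 0.942). The KO mice thus lay on both sides of the WT range. With *Pde1b*, the *Pde1* genes had fold changes of -0.45, -0.19 and 0.02.

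Counted over the 10 genes, 6 had negative and 4 positive fold changes over both sexes (median -0.18, against 0.00 over all tested genes). At an unadjusted p under 0.05, 6 were lower, against 11.8% of all tested genes, and 2 were higher (*Pde4a* and *Pde5a*), against 11.6%. In males 0 passed the adjusted threshold, which 0.00655% of all genes did. At an unadjusted p under 0.05 in males, *Pde1b*, *Pde1c*, *Pde4b* and *Pde7b* were lower (8.45% of all genes) and *Pde5a* was higher (8.75%). In females 0 passed as well (0.0131% of all genes), while *Pde1b* and *Pde2a* were lower at an unadjusted p under 0.05 (7.93% of all genes) and *Pde4d* and *Pde5a* were higher (6.55%). Male KO and WT mice did not overlap for *Pde1c* and *Pde4b*, which were lower (8.58% of all genes), and for *Pde5a*, which was higher (6.59%). In females, *Pde4d* and *Pde5a* were higher without overlap (3.59% of all genes). The comparisons over both sexes and within each sex share the same mice.

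**Figure D4:**
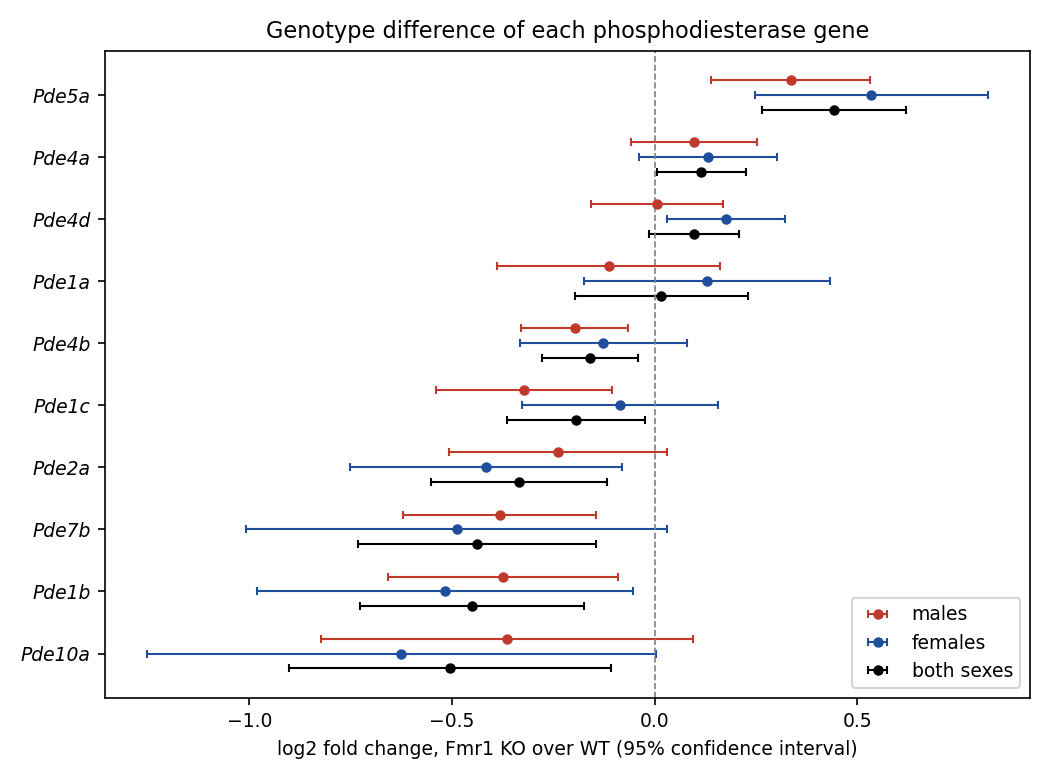
log2 fold change of *Fmr1* KO over WT mice for each of the 10 genes, with 95% confidence intervals from limma, for males, females and both sexes. *Pde5a* lies highest at 0.44 over both sexes and *Pde10a* lowest at -0.50.

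No member passed the test for a different genotype effect in the sexes (limma interaction, 0 of 10 at an adjusted p under 0.05, where 0% of all genes passed, and 0 of 10 at an unadjusted p under 0.05, where 3.46% were negative and 2.52% positive). Among WT mice, females and males did not differ detectably in any of the 10 genes. The log2 difference of WT females from WT males ran from -0.06 for *Pde4d* to 0.06 for *Pde4a*, 0 of 10 passed the adjusted threshold (limma, 2.82% of all genes) and 0 of 10 had an unadjusted p under 0.05 (7.95% of all genes lower in WT females and 7.07% higher). The widest of these intervals was that of *Pde10a*, from -0.51 to 0.60.

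The genes whose values were most like those of a member, after subtraction of the group means and over 15 mice, were found for the members highest per length and for the called one. For *Pde1b* they were *Gng7*, *Cap1*, *Kcnab1*, *Ppp1r1b* and *Sh2d5* (Pearson's r 0.980 to 0.995). For *Pde2a* they were *Kcnip2*, *Chrm4*, *Lingo3*, *Tef* and *Ngef* (0.969 to 0.992). For *Pde5a* they were *Numb*, *Zbtb34*, *Strbp*, B230216N24Rik and *Ncapd2* (0.925 to 0.941), and none of the lists shared a gene.

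Other phosphodiesterase genes did not pass the test over both sexes (0 of 8 tested, limma, against 1.28% of all genes). At an unadjusted p under 0.05, 2 of the 8 were lower and 0 higher, against 11.8% and 11.6% of all genes. *Pde8b*, which encodes another cAMP-specific enzyme, had a log2 fold change of -0.23 ± 0.08 (SE, adjusted p = 0.109) and stood between *Pde1a* and *Pde4a* in level per length. *Pde9a*, which encodes a cGMP-specific enzyme like *Pde5a*, had -0.10 ± 0.05 (SE, limma, adjusted p = 0.206). *Pde8a* and *Pde11a* had 0.16 each (adjusted p = 0.220 and 0.328). The photoreceptor genes *Pde6a*, *Pde6b* and *Pde6c* lay under the minimum for testing.

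Around the enzymes, 1 of 18 tested genes of cyclic nucleotide synthesis passed over both sexes, against 1.28% of all genes. It was the guanylyl cyclase *Gucy2f*, which was higher (0.27 ± 0.06, SE, limma, adjusted p = 0.0433). *Adcy5*, the main striatal adenylyl cyclase, had a log2 fold change of -0.47 (adjusted p = 0.0535), *Adcy6* had 0.32 (0.0722 for the adjusted p), and the guanylyl cyclase subunit *Gucy1b1* had -0.23 (adjusted p = 0.0928). Among cyclic nucleotide effectors 0 of 26 passed (limma, with an unadjusted p under 0.05 for 3 on the lower and 5 on the higher side, against 11.8% and 11.6% of all genes). *Ppp1r1b*, the substrate of protein kinase A known as DARPP-32, had -0.54 (adjusted p = 0.0560). The study tested counts with DESeq2 and names both *Ppp1r1b* and *Adcy5* among its downregulated genes. Of 17 regulators and partners of phosphodiesterases, 14 were on the lower side, against 7461 of all 15261 tested genes. An unadjusted p under 0.05 was reached by 8 that were lower and 2 that were higher, against 11.8% and 11.6% of all genes. The kinase anchor *Akap1* was the gene that passed and was lower (-0.24 ± 0.05, SE, limma, adjusted p = 0.0406). The medians of these lists were 0.06, 0.02 and -0.06, against 0.00 over all tested genes.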

How the data were processed

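RNA from the ventral striatum of 15 mice was sequenced from stranded mRNA libraries as paired ends. Per the labels and methods, the authors aligned reads to mm10 (GRCm38) with STAR and turned counts of all samples into rlog values with DESeq2. These deposited values are on a log2 scale, and no counts were used here, so the depth and counting error of each mouse are unknown. Whether counting used strand is not given in the sources used here. Tests used limma 3.58.1 (R 4.3.3) on genes whose mean rlog reached 3 (variance trend, 2-sided, Benjamini-Hochberg adjustment over all genes tested, adjusted p under 0.05), with sex as a term over both sexes, in each sex alone, and with 4 group means for the interaction and for sex in WT. The fit was tested on simulated data. Single values were also compared with exact permutation tests. Lengths came from GENCODE for GRCm38 (15119 of 15261 tested genes matched) and start windows from RefSeq (10 of 10 genes matched). Python 3.11.15 and matplotlib 3.10.9 drew the figures.

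The members and lists were chosen with earlier results of these data known. All 10 members are named, other lists by their called genes and up to 4 with the smallest p, all tested other phosphodiesterases may be named, and the 5 most alike genes are given for 2 members of the highest level per length and for each called one. *Tagln* and the members called in an alternative were named after their values were seen. Alternatives were another or no minimum, no variance trend, quantile or median scaling, sample quality weights, a replicate block, 2 marker scores as covariates, no sex term, the spread of all mice, exact tests, other lengths and leaving out each mouse. In males, deviations of same-numbered mice correlated at 0.13, 0.35 and 0.37, and those of differently numbered mice at -0.50 to 0.25. The labels name no shared litter or day. A KO male excluded by the authors was not analysed here. Nothing in the sources used here says that mice came from separate litters, so p-values measure the spread between these mice.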

Additional observations from a re-analysis of the deposited data

Results flagged for a closer look

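In 30 sets of values, each of 1 gene in 1 group of 4 mice, the lowest or highest mouse stood far from the others in 4. Chance gives about 1 in 20 for independent sets. These sets share mice and hold genes that moved together, so the count cannot be set against that rate. WT female 1 was low for *Pde1b* (13.59, with the other WT females at 14.17 to 14.28), *Pde7b* (11.75, others 12.44 to 12.58) and *Pde10a* (13.95, others 14.84 to 14.87). WT male 3 was low for *Pde1b* (13.88, others 14.19 to 14.24). Both mice were also the lowest of their group in the mean of the projection neuron markers (12.36 and 12.58), and these markers share the libraries with the members. What sets these mice apart was not tested.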

How the results depend on the processing

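Over both sexes, 1 member was called. Another or no minimum on the mean, no variance trend, quantile and median scaling, no sex term and the neighboring-region score as a covariate also gave 1 member. The count was 7 with sample quality weights, which called 4767 of all genes, 0 with the projection neuron score in the model, 0 with exact permutation tests adjusted over all genes, 6 without WT male 3 and WT female 1 (2179 of all genes), and 0 to 6 with each mouse left out in turn (5 to 1444 of all genes). The adjusted exact tests could call a gene only if many genes tied at their smallest p. *Pde5a* was at that smallest p with an adjusted p of 0.0989 (exact permutation test), so these tests called no gene at all. For the fit with the projection neuron score, the count over all genes is not given here. Its 0 thus cannot be read as a result about the members. In males 4 members were called with quality weights, against 0. The count over all genes is not given here for males, so the 4 cannot be read as a result about the members. Over both sexes, these weights raised the calls among all genes from 196 to 4767. In females every alternative gave 0 members. With the replicate block, 0 members were called over both sexes, with *Pde5a* at 0.47 (limma, adjusted p = 0.0721), and 3 of all genes, against 196. Deviations of same-numbered mice correlated at 0.13 to 0.37 in the 3 male pairs and at -0.19 to 0.44 in the 4 female pairs, so the numbers were not taken as pairs over both sexes or in females. In males these correlations were all positive, while differently numbered pairs ran from -0.50 to 0.25. A pairing of the males is not established, and the male tests given above were run without it. In males the block called 0 members, as without it. The difference of the sexes in WT could not be fitted with the block.

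Signs turned over both sexes with the projection neuron score in *Pde1b* (0.024), *Pde2a* (0.022), *Pde4d* (-0.013), *Pde7b* (0.055) and *Pde10a* (0.16), and in *Pde1a* when single mice were left out (-0.024 to 0.083). In males they turned in *Pde4d* with median scaling (-0.0086), the replicate block (-0.010), the projection neuron score (-0.10) and the neighboring-region score (-0.044). They also turned with the projection neuron score in *Pde2a* (0.11) and *Pde10a* (0.20), with the neighboring-region score in *Pde1a* (0.018), *Pde2a* (0.019) and *Pde10a* (0.13), and when single males were left out in *Pde4d* (-0.042 to 0.047) and *Pde1a* (-0.24 to 0.014). In females they turned with the projection neuron score in *Pde1b* (0.047), *Pde1c* (0.082), *Pde4b* (0.074), *Pde7b* (0.15) and *Pde10a* (0.14). The causes were not tested. In the order of levels per length, 5 of the 10 genes changed rank with mean transcript length and 3 with no length correction. No counts bear on these values, so depth limits cannot be given.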
